A study of Mus musculus with 12 samples.

Results

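The genes described here are 9 named members of the versican and hyaluronan system: the proteoglycans Vcan and Acan, the link protein Hapln1, the hyaluronan synthases Has1 and Has2, the hyaluronan receptor Cd44, and the proteases Adamts1, Adamts5 and Adamts9. They were chosen by gene symbol, and all 9 were found among the 41709 genes measured in mouse aortic valve leaflets. Leaflets of mice of the mixed strain C57BL/6J;129SvEv, 2 months old, were cut out whole from frozen heart sections with a laser, and their RNA was amplified and sequenced. The 12 libraries fell into 4 genotype groups of 3, labelled CTRL, ECKO, SMKO and DKO. In the study as it is known, Efemp2, which encodes the elastic fibre protein fibulin-4, was deleted in endothelial cells in ECKO, in smooth muscle cells in SMKO and in both in DKO. The labels name neither that gene nor the alleles, nor the promoter that drove each deletion, and they do not say whether leaflets of several animals were pooled.

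Versican is a large proteoglycan whose chains of chondroitin sulfate hold water, and with hyaluronan it fills the spongy middle layer of a heart valve leaflet. Its head binds hyaluronan, and link protein locks that bond, so that many versican molecules ride on 1 hyaluronan strand. ADAMTS proteases cut the versican core, and mice that lack Adamts5 or carry less Adamts9 are known to keep too much versican in thickened valves.

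Among the 9 genes, Hapln1 and Adamts5 had the lowest p-values in DKO against CTRL, and both stood lower in every DKO library than in every CTRL library. Vcan itself differed little between DKO and CTRL, and Adamts1, the protease gene next to Adamts5, had a higher mean in DKO. After adjustment over all genes, edgeR's quasi-likelihood test with Benjamini-Hochberg adjustment called 0 of the 5 tested members in any comparison at an adjusted p under 0.05. Without adjustment, 2 members had p under 0.05 in DKO against CTRL (Hapln1 and Adamts5), 2 in SMKO against CTRL (the same pair) and 2 in DKO against ECKO (Vcan and Adamts5). In ECKO against CTRL it was 1, Vcan. Of all 6296 tested genes, 11.7% had an unadjusted p under 0.05 in DKO against CTRL, 5.46% in SMKO against CTRL, 10.8% in DKO against ECKO and 4.29% in ECKO against CTRL. DESeq2 and limma-voom also called 0 members.

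These counts were read against the rest of the transcriptome. The share of all 6296 tested genes that passed was 0.492% for DKO against CTRL and 0.572% when ECKO was the reference. It was 0% in ECKO against CTRL, in SMKO against CTRL, in DKO against SMKO and in SMKO against ECKO. A test over the 4 groups at once called 0.302%, and the interaction, which asks whether both deletions together differ from the sum of each, called 0.0318%. These shares depended on single libraries: DKO against ECKO went from 36 calls to 0 without ECKO 2, ECKO 3 or DKO 1 and to 151 without SMKO 2. With so few calls anywhere, the absence of a call among 5 members says little about them.

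Library totals ran from 74827 to 615665 counts, so a gene with few counts is known only roughly. SMKO 3 had the lowest total and SMKO 2 the lowest scaling factor (0.723), and mitochondrial genes took from 10.5% to 28.5% of a library. The 7 interstitial cell markers and the 8 endothelial markers all had counts in every group. The CTRL libraries had 58, 23 and 9 counts of Efemp2, those of ECKO 3, 15 and 8, those of SMKO 4, 0 and 0, and all DKO libraries 0, and edgeR's quasi-likelihood test called it lower in DKO than in CTRL (adjusted p = 0.000507). The series calls its libraries biological triplicates, but no label ties a library to an animal, so p-values measure the spread between these libraries.

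Levels are given as TMM-scaled CPM, which is a count relative to the scaled library total, and a difference as a log2 fold change ± its standard error. In any such value from whole leaflets, fewer cells of a type and less RNA per cell cannot be told apart. Only TPM, the authors' length-scaled unit, allows 1 gene to be set against another. In CTRL the order by mean TPM was Vcan (94.4 ± 47.9, SD, n = 3), Cd44 (91.0 ± 15.9), Hapln1 (43.2 ± 10.3), Adamts1 (36.0 ± 17.6), Adamts5 (15.5 ± 1.41) and Has2 (4.21 ± 2.17). The neighbours Vcan and Cd44, and likewise Hapln1 and Adamts1, lay within 1 SD of each other. Adamts9 (1.69 ± 1.52 TPM), Has1 (1.09 ± 0.942) and Acan (0.610 ± 0.698) came last, again within their spread. Vcan ranked at percentile 93.9 of the 16588 genes with a count by its TPM in CTRL, Cd44 at 93.6 and Adamts5 at 69.0. In the other 3 groups Cd44 had the highest mean TPM of the 9, with 124 ± 56.3 in DKO against 75.0 ± 23.6 for Vcan.

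**Figure D1:**
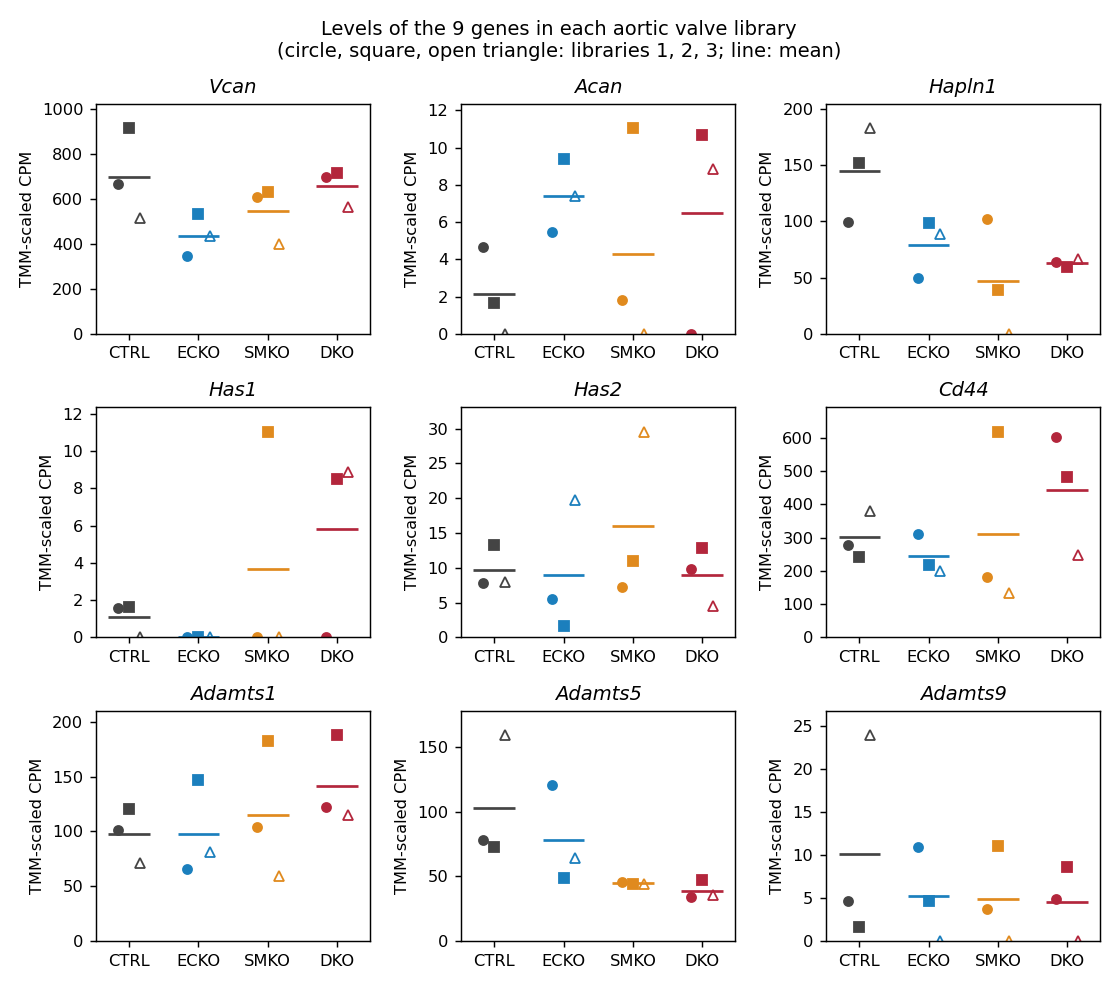
TMM-scaled CPM of each of the 9 genes (y axes, from 0) in the 12 libraries, by genotype group; symbols mark libraries 1, 2 and 3 and lines the group means. Hapln1 and Adamts5 lie lower in all 3 DKO libraries than in all 3 CTRL libraries, and Acan, Has1, Has2 and Adamts9 rest on a few counts per library.

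Hapln1 and Vcan, which meet in 1 complex with hyaluronan, are also direct neighbours on chromosome 13, on opposite strands. Their promoters are shown because both genes lie in the same stretch of chromosome but had different values in DKO. Each run is the 250 bases before the RefSeq start, in build GRCm38.p6, read 5′ to 3′ on the gene's own strand. Capitals mark the GC box GGGCGG, or CCGCCC where it lies on the other strand, which is 1 of 4 motifs searched on both strands. The others were the TATA box TATAAA, the AP-1 motif TGANTCA and the TEAD motif CATTCC. The Hapln1 window is chr13:89540386-89540635 on the plus strand, and the Vcan window chr13:89742513-89742762 on the minus strand.
Hapln1: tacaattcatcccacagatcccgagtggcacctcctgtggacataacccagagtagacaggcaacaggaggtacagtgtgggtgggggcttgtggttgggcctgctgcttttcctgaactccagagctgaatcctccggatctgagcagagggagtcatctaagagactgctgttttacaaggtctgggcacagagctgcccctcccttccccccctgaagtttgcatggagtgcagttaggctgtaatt
Vcan: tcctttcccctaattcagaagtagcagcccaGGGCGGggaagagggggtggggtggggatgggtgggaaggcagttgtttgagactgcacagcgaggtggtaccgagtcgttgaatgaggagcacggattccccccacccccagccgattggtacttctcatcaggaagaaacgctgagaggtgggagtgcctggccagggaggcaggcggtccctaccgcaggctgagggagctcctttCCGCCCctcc
The Hapln1 window held 54.4% G and C and none of the 4 motifs. That of Vcan held 62.4% and 2 GC boxes. GC boxes occurred in 32.7% of all 32851 promoter windows, TATAAA in 12.4%, TGANTCA in 6.75% and CATTCC in 12.6%. Of the 9 genes, 7 had a promoter in the RefSeq table, and those of Has2 and Adamts5 were not matched.

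Vcan (ENSMUSG00000021614) encodes the large proteoglycan versican. It had 666, 915 and 517 CPM in the CTRL libraries (from 427, 553 and 65 counts), and 699, 714 and 564 CPM in DKO. All 3 DKO values lay inside the CTRL range. ECKO had 345, 531 and 435 CPM, and SMKO had 610.0, 629 and 399. Every ECKO library lay below every DKO library, while ECKO and CTRL overlapped by 1 library each.

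The Vcan difference of DKO from CTRL was -0.10 ± 0.27, with a 95% interval from -0.66 to 0.46 (adjusted p = 0.945, edgeR's quasi-likelihood test). Its sign turned, to 0.14, without CTRL 2. The lowest p-value among the pairs was that of ECKO against CTRL, where the log2 fold change was -0.68 ± 0.28, with an interval from -1.24 to -0.12 (unadjusted p = 0.0197, adjusted p = 0.998, edgeR's quasi-likelihood test). DKO stood 0.58 ± 0.28 above ECKO on the log2 scale (adjusted p = 0.446, same edgeR test). Groups ordered like this, with all DKO above all ECKO libraries, were seen in 9.9% of all tested genes. The interaction was 0.93 ± 0.39, with an interval from 0.12 to 1.73 (unadjusted p = 0.0250, adjusted p = 0.747, edgeR's quasi-likelihood test). Among the group means that of ECKO was the lowest (437 ± 92.9 CPM, SD, n = 3).

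Acan (ENSMUSG00000030607) encodes aggrecan, the chief proteoglycan of cartilage. It was close to the limit of detection, with 3, 1 and 0 counts in the CTRL libraries, 1, 6 and 3 for ECKO, 1, 2 and 0 for SMKO, and 0, 5 and 2 for DKO. Pooled over a group, this gave 2.92 CPM in CTRL (95% exact Poisson interval 0.795 to 7.47) and 8.15 in ECKO (3.91 to 15.0). ECKO over CTRL was 2.79, with an exact interval from 0.806 to 12.2 that holds a ratio of 1. Such intervals cover counting error of the pooled counts only, and leave out the spread between libraries. PCR copies, moreover, are not separate molecules.

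Hapln1 (ENSMUSG00000021613) encodes the link protein. It had 99.8, 152 and 183 CPM in CTRL, from 64, 92 and 23 counts. In DKO it had 63.6, 59.7 and 66.6 CPM, from 13, 28 and 15 counts. The DKO libraries lay close together and all below the lowest CTRL library. ECKO had 49.3, 98.4 and 88.9 CPM, also all below CTRL, though the highest ECKO library missed the lowest CTRL library only narrowly. SMKO was spread widely, at 102, 38.6 and 0 CPM. The 0 came from SMKO 3, the shallowest library, where 3 counts would equal 44.3 CPM.

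The log2 fold change of Hapln1 in DKO against CTRL was -1.13 ± 0.39, with a 95% interval from -1.93 to -0.33 (unadjusted p = 0.00787, adjusted p = 0.217, edgeR's quasi-likelihood test). With no filter on low counts the same edgeR test gave -1.14 ± 0.32 and an adjusted p of 0.0356, so whether Hapln1 counted as lower turned on that filter. That fit called 0.952% of its 16588 genes. SMKO against CTRL gave -1.01 ± 0.39 (adjusted p = 0.869, edgeR's quasi-likelihood test), and ECKO against CTRL -0.72 ± 0.36 (adjusted p = 0.998, same test). The 3 comparisons share their CTRL libraries. DKO and SMKO differed by -0.12 ± 0.43, an interval from -1.02 to 0.78. In the authors' deposited table the DKO to CTRL fold change of Hapln1 is -2.22, with a p of 0.00181. Whether the p-values of that table were adjusted is not stated.

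Link protein was also set against its partner within each library, since a ratio of 2 genes of 1 library does not depend on scaling. For every 100 Vcan counts there were 15.0, 16.6 and 35.4 Hapln1 counts in CTRL and 14.3, 18.5 and 20.5 in ECKO. In DKO there were 9.09, 8.36 and 11.8, all below the CTRL and ECKO libraries. SMKO ranged from CTRL values down to 0, with 16.8, 6.14 and 0. These ratios are given as a description, with no test, and how many other gene pairs separate in this way was not counted.

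**Figure D2:**
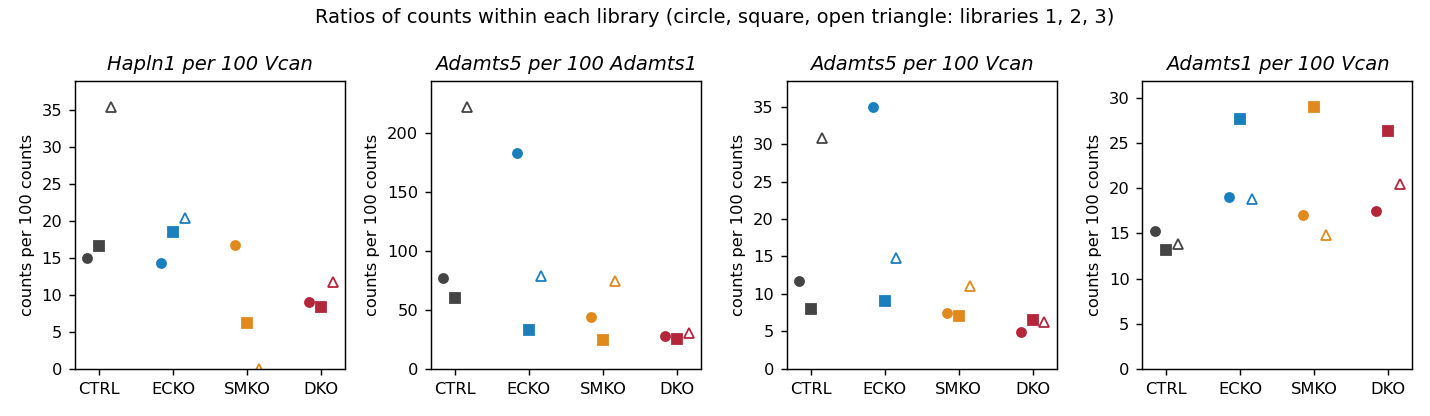
Counts of 1 gene for every 100 counts of another in the same library (y axes, from 0), by genotype group, for 4 pairs of genes; symbols mark libraries 1, 2 and 3. The DKO libraries sit at 8.36 to 11.8 Hapln1 counts for every 100 Vcan counts and at 25 to 30.8 Adamts5 counts for every 100 Adamts1 counts.

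Has1 (ENSMUSG00000003665) and Has2 (ENSMUSG00000022367) encode membrane enzymes that spin out hyaluronan, and Has2 is the main synthase of the developing heart. Has2 had 5, 8 and 1 counts in the CTRL libraries, 1, 1 and 8 for ECKO, 4, 2 and 2 for SMKO, and 2, 6 and 1 for DKO. Its pooled level was 10.2 CPM in CTRL (95% exact Poisson interval 5.58 to 17.1), 8.15 in ECKO (3.91 to 15.0), 10.0 in SMKO (4.34 to 19.8) and 10.0 in DKO (4.58 to 19.0). DKO over CTRL was 0.981, and its exact interval from 0.374 to 2.43 leaves room for more than a doubling either way. Has2 shares exons with the antisense gene Has2os, which had no count in any library.

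Has1 had 1, 1 and 0 counts in the CTRL libraries, 0 in all 3 ECKO libraries, 0, 2 and 0 in SMKO, and 0, 4 and 2 in DKO. A count of 0 in ECKO allows a level of up to 2.44 CPM over the group (3 counts of the pooled total). The pooled DKO level was 6.67 CPM (95% exact Poisson interval 2.45 to 14.5), which is 2.73 times that floor. With the error of the 6 DKO counts included, the exact interval of the ratio of DKO to ECKO begins at 1.61. That interval pools the libraries of a group and leaves out the spread between them. DKO over CTRL was 4.58, with an exact interval from 0.818 to 46.4. One DKO library had no Has1 count, and with no low-count filter edgeR's quasi-likelihood test gave DKO against ECKO an unadjusted p of 0.0170 and an adjusted p of 0.456. Neither synthase entered the main test, which needs more counts.

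Cd44 (ENSMUSG00000005087) encodes the main cell surface receptor for hyaluronan. It had 279, 241 and 382 CPM in CTRL and 312, 219 and 200.1 in ECKO. In DKO it had 601, 484 and 249 CPM, so that DKO 1 and DKO 2 were above all CTRL and ECKO libraries and DKO 3 was among them. SMKO had 181, 618 and 133 CPM, which makes SMKO 2 the highest of the 12 libraries and SMKO 3 the lowest. No pair of groups was separate.

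The Cd44 log2 fold change was 0.60 ± 0.48 in DKO against CTRL, with a 95% interval from -0.44 to 1.63 (adjusted p = 0.692, edgeR's quasi-likelihood test). The lowest p-value among its pairs was in DKO against ECKO, at 0.89 ± 0.48 with an interval from -0.15 to 1.93 (unadjusted p = 0.0868, adjusted p = 0.558, same edgeR test). Other values of Cd44 turned on SMKO 2. With it, DKO stood 0.48 ± 0.48 above SMKO (adjusted p = 0.938, edgeR's quasi-likelihood test). Without it, Cd44 was called higher in DKO than in SMKO, at 1.41 ± 0.33 (adjusted p = 0.0177, same edgeR test), and the interaction was called as well, at 1.70 ± 0.42 (adjusted p = 0.0402). Without SMKO 2, calls over all genes also went up, to 1.68% in DKO against SMKO and 0.813% in the interaction. The authors' deposited table gives Cd44 a fold change of 1.85 in DKO against ECKO, with a p of 0.0407 whose adjustment is not stated.

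Markers of the cells that carry Cd44 were read beside it. The summed level of the 7 interstitial cell markers was 48599 CPM in SMKO 2 and 44548 in DKO 1, the 2 libraries with the most Cd44. It was 19883 in SMKO 3, the library with the least. DKO 2, the next highest in Cd44 (484 CPM), had a sum of 32756, inside the CTRL range. That was below CTRL 3, with a sum of 35574 and less Cd44 (382 CPM). The 8 macrophage markers summed to 1214 CPM in SMKO 2, 968 in DKO 1 and 783 in SMKO 3. They did not follow Cd44 in DKO 2, which had the lowest sum of the 12 libraries (486), nor in DKO 3 (1132). The interstitial list ran from 30086 to 35574 CPM over the CTRL libraries and from 29973 to 44548 over DKO, with no marker at 0. The part of these cells in the Cd44 values was not tested.

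Adamts1 (ENSMUSG00000022893) and Adamts5 (ENSMUSG00000022894) are direct neighbours on chromosome 16, on the same strand, and both encode secreted proteases that cut versican. The Adamts1 promoter is shown because it holds more of the searched motifs than either promoter above. It is chr16:85803114-85803363 on the minus strand in GRCm38.p6, from RefSeq, with GC boxes and the TATA box in capitals.
Adamts1: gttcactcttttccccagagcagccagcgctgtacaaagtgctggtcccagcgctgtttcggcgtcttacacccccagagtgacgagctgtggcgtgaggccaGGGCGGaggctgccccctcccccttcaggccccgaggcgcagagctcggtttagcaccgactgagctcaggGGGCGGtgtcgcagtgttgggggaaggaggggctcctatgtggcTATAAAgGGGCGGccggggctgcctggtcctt
The window held 3 GC boxes and 1 TATAAA, which begins 32 bases before the start, and 65.6% G and C.

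Adamts1 had 101, 121 and 71.6 CPM in CTRL, 65.8, 147 and 81.5 for ECKO, 104, 182 and 59.1 for SMKO, and 122, 188 and 115 for DKO. Each group overlapped each other group, with DKO at the upper end. DKO against CTRL gave 0.50 ± 0.31, with a 95% interval from -0.14 to 1.14 (adjusted p = 0.576, edgeR's quasi-likelihood test). Without DKO 2 the value was 0.20. This pair also had its lowest p-value, and its other 5 pairs lay between 0.01 and 0.49 on the log2 scale. For every 100 Vcan counts there were 13.2 to 15.2 Adamts1 counts over the CTRL libraries and 17.5 to 26.3 over DKO, which did not overlap. ECKO, at 18.8 to 27.6, was also apart from CTRL, and SMKO, at 14.8 to 28.9, was not. These ratios carry no test, and how many other gene pairs separate in this way was not counted.

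Adamts5 had 78.0, 72.8 and 159 CPM in CTRL, from 50, 44 and 20 counts. ECKO had 121, 48.4 and 64.2 CPM, from 22, 31 and 26 counts. In SMKO it had 45.7, 44.2 and 44.3 CPM, from 25, 8 and 3 counts, and in DKO 34.2, 46.9 and 35.5, from 7, 22 and 8 counts. The 6 SMKO and DKO libraries thus all lay below the 6 CTRL and ECKO libraries. The gap was narrow, with DKO 2 at 46.9 and ECKO 2 at 48.4 CPM. The value of SMKO 3 rested on 3 counts, and 1 count in that library equals 14.8 CPM, more than this gap. On the TPM scale that gap closed, since DKO 2 had 8.59 and ECKO 2 had 8.49.

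The log2 fold change of Adamts5 in DKO against CTRL was -1.16 ± 0.36, with a 95% interval from -1.90 to -0.42 (unadjusted p = 0.00337, adjusted p = 0.172, edgeR's quasi-likelihood test). SMKO against CTRL gave -1.0 ± 0.38 (adjusted p = 0.869, same edgeR test), and DKO against ECKO gave -0.79 ± 0.38 (adjusted p = 0.447). ECKO against CTRL gave -0.37 ± 0.33 and DKO against SMKO -0.16 ± 0.43, with intervals from -1.04 to 0.30 and from -1.03 to 0.72. The authors' deposited table has a DKO to CTRL fold change of -2.17 for Adamts5, with a p of 0.00275, again with no word on adjustment.

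The pattern led to a contrast that was chosen after these values had been seen, the mean of SMKO and DKO against the mean of CTRL and ECKO. Adamts5 stood at -0.90 ± 0.27 in it, with a 95% interval from -1.44 to -0.35 (unadjusted p = 0.00216, adjusted p = 0.152, edgeR's quasi-likelihood test). Hapln1 stood at -0.71 ± 0.28 (adjusted p = 0.338, same edgeR test). This contrast called 0.206% of all tested genes and 0 of the 5 members, and its mirror for ECKO and DKO called 0%. Without SMKO 1, Hapln1 was called in it, at -1.37 ± 0.33 (adjusted p = 0.0238, edgeR's quasi-likelihood test), in a fit that called 1.58% of genes. A full separation of 6 libraries below the other 6, as in Adamts5, was found in 0.445% of all tested genes. Because the contrast was picked for Adamts5, these values are no independent support for its difference.

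Group by group, separate values were not rare. Of the 5 tested members, 2 lay lower in all DKO than in all CTRL libraries (Hapln1 and Adamts5), as did 8.04% of all tested genes. In SMKO below CTRL it was 1 member (Adamts5) and 6.26% of genes, and in ECKO below CTRL 1 member (Hapln1) and 5.89%. Adamts5 was the 1 member with all DKO below all ECKO libraries (8.93% of genes) and the 1 with all SMKO below all ECKO libraries (5.35%).

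**Figure D3:**
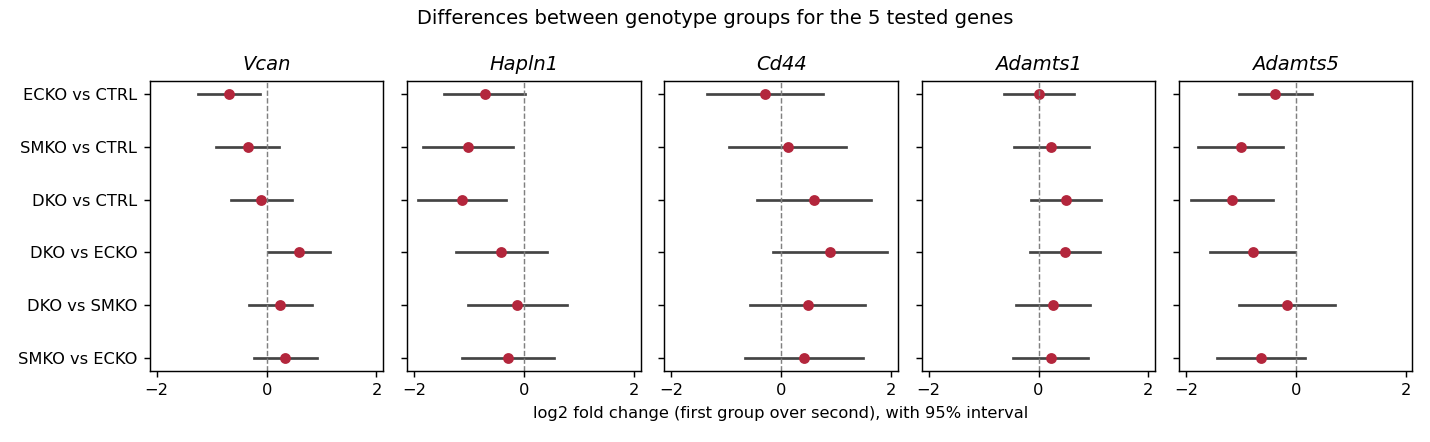
Log2 fold change of the 5 tested genes in each pair of groups (x axis, first group over second), with points for the estimate and bars for its 95% interval before adjustment for the number of genes. In DKO against CTRL the bars of Hapln1 and Adamts5 lie below 0 and those of Vcan, Cd44 and Adamts1 include it.

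Against its neighbour, Adamts5 took a share that was low in all DKO libraries. For every 100 Adamts1 counts there were 76.9, 60.3 and 222 Adamts5 counts in CTRL, and 28.0, 25 and 30.8 in DKO. ECKO, with 183, 33.0 and 78.8, lay above DKO too, while SMKO, with 43.9, 24.2 and 75.0, did not. Set against its substrate, Adamts5 had 4.90 to 6.57 counts for every 100 Vcan counts over the DKO libraries, and at least 7.02 in each of the other 9 libraries. For every 100 Cd44 counts there were 27.9 to 41.7 Adamts5 counts in CTRL and 5.69 to 14.3 in DKO. These are descriptions with no test, and a ratio shows unequal change rather than which gene moved. The share of other gene pairs that separate in this way was not counted.

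Adamts9 (ENSMUSG00000030022), the protease whose partial loss is known to thicken mouse valves, had 3, 1 and 3 counts in the CTRL libraries, 2, 3 and 0 for ECKO, 2, 2 and 0 for SMKO, and 1, 4 and 0 for DKO. Its pooled level was 5.10 CPM in CTRL (95% exact Poisson interval 2.05 to 10.5) and 5.56 in DKO (1.81 to 13.0). The ratio of 1.09 had an exact interval from 0.273 to 3.99, so a difference was not detectable at this depth. Its exons overlap genes on the opposite strand, and the library kit keeps no strand information, so counts there cannot be split between strands. Of these genes, A730049H05Rik had no count in any library.

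For each tested member, the 3 genes with the most similar pattern were sought among 3506 genes with a mean of at least 50 CPM, by the Pearson correlation of log2 CPM over the 12 libraries. Cd44 was followed most closely by Lum (0.958), the interstitial proteoglycan lumican, then by Mpzl1 (0.949) and Thbs1 (0.930). Adamts5 was closest to Ube3a (0.919), Sesn3 (0.874) and Daam1 (0.862), and Adamts1 to Ank (0.930), Anxa1 (0.900) and Golt1b (0.899). By rank (Spearman correlation), Sesn3 stood at only 0.678 with Adamts5 and Daam1 at 0.476. Vcan was closest to Tmem59 (0.896), Txn1 (0.884) and Itih5 (0.882). Txn1 itself followed library depth, with r of 0.66. Itih5 encodes a protein of the family that carries heavy chains onto hyaluronan. Hapln1 was closest to Atp6v0d1 (0.957), Pcnx (0.934) and Siae (0.934), genes that themselves followed library depth with r of 0.70, 0.60 and 0.76. The rank correlations of these 3 genes with Hapln1 were 0.783, 0.734 and 0.727. For the other genes listed, rank correlations were at least 0.846. The Pearson values are the highest of many correlations over libraries that share depth and scaling, and carry no test.

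The other genes of the pathway were taken from 7 lists with 80 genes, of which 42 had counts enough for the test. Of these, 0 were called in any of 10 tests by edgeR's quasi-likelihood test. Over all tested genes the median log2 fold change of DKO against CTRL was 0.02. The genes named below are the 2 of each list with the lowest p-values in that comparison. For the ADAMTS list all tested genes are named.

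Among genes that supply the sugars of hyaluronan, 3 of 7 tested stood higher in DKO and 4 lower, with a median of -0.00388. Uap1, which makes UDP-N-acetylglucosamine, had a mean of 77.7 CPM in CTRL and 135 in DKO (0.96 ± 0.31, adjusted p = 0.183, edgeR's quasi-likelihood test). Gfpt2, an enzyme at the entry of the same route, had 49.8 and 88.1 CPM. For hyaluronan breakdown, 3 of 5 stood higher, with a median of 0.27. They included the lysosomal enzyme gene Hexa (127 CPM in CTRL and 194 in DKO) and the hyaluronidase gene Hyal2 (76.1 and 112). Of 6 tested receptors and binding proteins 4 stood higher, with a median of 0.18. Layn, which encodes the hyaluronan receptor layilin, had 14.3 CPM in CTRL and 44.1 in DKO (1.40 ± 0.47, adjusted p = 0.198, same edgeR test). Tnfaip6, whose product moves heavy chains onto hyaluronan, had 96.3 and 63.8 CPM.

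Of the other lecticans and link proteins only Bcan could be tested, with 23.5 CPM in CTRL and 35.6 in DKO (0.47). Of the matrix proteins that bind versican, 3 of 4 stood higher, with a median of 0.74. Tnc, the gene of tenascin-C, had 2, 6 and 0 counts in CTRL and 2, 38 and 9 in DKO (3.01 ± 1.07, adjusted p = 0.276, edgeR's quasi-likelihood test), so that 1 DKO library held most of its counts. Fbln2, the gene of fibulin-2, had 185 CPM in CTRL and 269 in DKO.

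Of 5 tested other ADAMTS genes with their inhibitor, 3 stood higher, with a median of 0.84. Adamts8 had 18, 32 and 11 counts in CTRL and 60, 106 and 56 in DKO, or 56.2 and 256 CPM on average (2.41 ± 0.84, adjusted p = 0.302, edgeR's quasi-likelihood test). Adamts2, which trims procollagen, had 182 and 325 CPM (0.84 ± 0.25, adjusted p = 0.130, same edgeR test). Adamts8 and Adamts2 thus had a higher mean in DKO where Adamts5 had a lower one. The inhibitor gene Timp3 also had a higher mean in DKO, with 5844 CPM in CTRL and 11248 in DKO. Like Adamts5, Adamts15 had a lower mean in DKO, with 79.0 and 36.9 CPM (-1.04 ± 0.75). Adamts10 had 89.4 and 73.2 CPM (-0.06 ± 0.37). Among enzymes that build chondroitin sulfate, 7 of 14 stood higher and 7 lower, with a median of 0.11. Dsel, which turns chondroitin into dermatan sulfate, had 70.8 CPM in CTRL and 30.2 in DKO (-1.38 ± 0.39, adjusted p = 0.106, edgeR's quasi-likelihood test). Chpf, a chain-building factor, had 118 and 208 (0.78 ± 0.25, adjusted p = 0.172, same edgeR test).

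**Figure D4:**
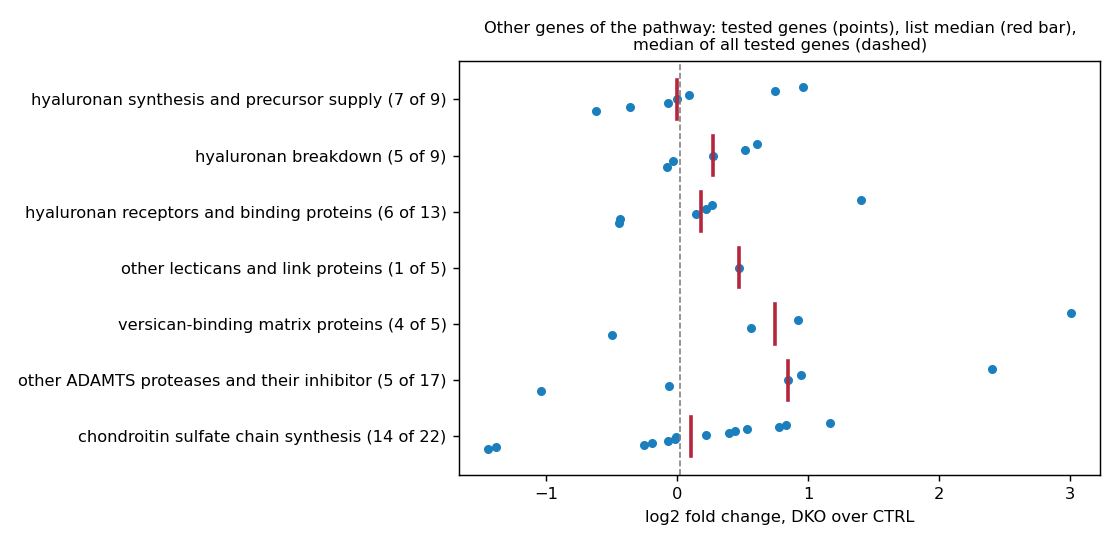
Log2 fold change of DKO over CTRL (x axis) for the tested genes of 7 pathway lists (points), with list medians (red bars) and the median of all tested genes (dashed line, 0.02). The points of each list with more than 1 tested gene fall on both sides of 0, and none was called.

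Markers of other cells were set beside Hapln1 and Adamts5, the members lower in all DKO than in all CTRL libraries. The 8 endothelial markers summed to 992 to 1089 CPM over the CTRL libraries, 1249 to 1468 over ECKO, 949 to 1507 over SMKO and 777 to 1056 over DKO. The 5 smooth muscle markers summed to 262 to 326 CPM in CTRL, 323 to 363 in ECKO, 207 to 276 in SMKO and 351 to 411 in DKO, with Cnn1 at 0 in CTRL and SMKO. All DKO libraries were thus above all CTRL libraries in this list, as all ECKO libraries were in the endothelial list. How often sums of other gene lists separate in this way was not counted. The 6 melanocyte markers summed to 215 to 724 CPM in CTRL, 411 to 973 in DKO, 207 to 1082 in SMKO and 65.8 to 109 in ECKO. The 6 chondrocyte markers summed to 930 to 1336 CPM in CTRL, 1280 to 1880 in ECKO, 906 to 1728 in SMKO and 1076 to 2609 in DKO. Col2a1 and Matn1 were at 0 in CTRL, Matn1 and Cnmd in ECKO, and Cnmd in SMKO and DKO. The part of these cells in the values of Hapln1, Adamts5 and Vcan was not tested.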

How the data were processed

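RNA was measured in 12 libraries of laser-cut aortic valve leaflets, 3 in each of 4 groups. The authors deposited 1 table with whole-number counts and TPM for each library, per the file headers, and a fold change (a score with sign) and p-value for DKO against each other group. Libraries came from amplified cDNA and the Nextera XT kit, per the labels' protocols, a kit without strand information. The submitters' processing notes name build GRCm39. How reads were aligned and counted, and whether by strand, is not given in the sources used.

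Counts were tested in edgeR 4.0.16 (R 4.3.3) with TMM scaling and a quasi-likelihood fit of all 12 libraries (8 residual degrees of freedom). P-values were adjusted by Benjamini-Hochberg over 6296 genes. The filter asked for about 10 counts in at least 3 libraries and kept genes with 93.1% of counts, among them 5 of the 9 members. A call is an adjusted p under 0.05. The pipeline was tested on simulated data. The other 4 members are given as pooled counts with exact 95% intervals and a floor of 3 counts. Those intervals leave out the spread between libraries. Libraries of a group differed by more than sampling noise (chi-square per degree of freedom 1.97 to 12.9), so none were merged for the tests. DESeq2 1.42.0, limma-voom (limma 3.58.1), other filters and scalings, a depth term and leaving out each library were the alternatives. Members and lists were chosen with earlier results of these data known. Every member was reported. For each tested member, DKO against CTRL, the pair with the lowest p and the 3 most similar genes by correlation were given. From each pathway list the 2 genes with the lowest p in DKO against CTRL were named, and from the ADAMTS list all tested genes. Gene types and neighbours came from an annotation of build GRCm38, and promoters from RefSeq GRCm38.p6, so no coordinates of the files' build are printed.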

Additional observations from a re-analysis of the deposited data

How the results depend on the processing

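In DKO against CTRL, 0 members were called under every alternative but 1: with no low-count filter 1 member, Hapln1, was called, and the same filter change gave 1 call over the 4 groups. Leaving out 1 library gave 0 to 1 calls in DKO against SMKO, over the 4 groups and in the interaction (Cd44, without SMKO 2), and 0 to 1 in the contrast of SMKO and DKO against CTRL and ECKO (Hapln1, without SMKO 1). The cause was not tested. Among other pairs, small differences also changed sign with the tool: Hapln1 in DKO against SMKO (-0.12, and 0.02 with DESeq2), Cd44 in SMKO against CTRL (0.12, and -0.12 with limma-voom) and Adamts1 in ECKO against CTRL (0.01, and -0.05 with limma-voom). Of 10 fold changes followed through all alternatives, the Vcan difference of DKO from CTRL turned sign, to 0.0114 with a depth term, and it ran from -0.28 to 0.14 over the leave-one-out fits, with 0.14 without CTRL 2 and 3.4e-05 without DKO 3. Adamts5 kept its direction in DKO against CTRL in 23 alternatives, from -1.37 to -0.92, with an adjusted p from 0.0858 to 0.366 in edgeR, DESeq2 or limma-voom, and Hapln1 in 24, from -1.38 to -1.02. The stricter filter left Adamts5 untested. DESeq2 gave no adjusted p for Hapln1 and Adamts5 in DKO against CTRL; without its own filter, an addition made after this was seen, these were 0.409 and 0.317. Over all genes, DKO against CTRL had 31 calls, 158 with no filter, 17 with a depth term, 42 with DESeq2, and 26 with limma-voom. Leaving out 1 library moved it between 4 (without CTRL 2) and 139 (without SMKO 2), with 6 without CTRL 1, 7 without DKO 3, 12 without DKO 1, 15 without DKO 2 and 68 without SMKO 1. Whether replicate numbers pair the libraries is not settled by these values. Correlations of same-numbered libraries ran from -0.14 to 0.18, and 5 of 18 were over 0.1, while 8 of 12 libraries were closest to their own number. With a replicate block, 0 members and 49 genes were called in DKO against CTRL. Acan, Has1, Has2 and Adamts9 had at most 8 counts in a library, so only large differences could have been seen.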

Other observations

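Hapln1 has Vcan on one side and Edil3, which encodes a matrix protein of endothelial cells, on the other. Edil3 was looked at after the values of Hapln1 had been seen. It had 35.9, 77.7 and 103 CPM in CTRL, 32.9, 54.7 and 49.4 for ECKO, 43.8, 16.6 and 14.8 for SMKO, and 9.78, 10.7 and 8.88 for DKO, where it rested on 2, 5 and 2 counts. Edil3 was called lower in DKO than in CTRL, with a log2 fold change of -2.65 ± 0.51 (adjusted p = 0.00991, edgeR's quasi-likelihood test). It was also called lower in DKO than in ECKO, at -2.23 ± 0.53 (adjusted p = 0.0446, same edgeR test). The call against ECKO was lost without ECKO 2, ECKO 3 or DKO 1, since those fits called 0 genes. For its call against CTRL no alternative fit is given here. In the order along the chromosome, DKO against CTRL was thus -2.65 for Edil3, -1.13 for Hapln1 and -0.10 for Vcan, of which only Edil3 was called. Xrcc4, the DNA repair gene on the far side of Vcan, had a mean of 13.3 CPM in CTRL and 15.1 in DKO. It rested on 9, 6 and 2 counts in CTRL and 4, 10 and 1 in DKO, and no test of it is given.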
